A study of Rattus norvegicus with 9 samples.

Results

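Macrophage marker genes were followed in RNA-seq libraries of neonatal rat cardiomyocytes that had been infected with a TCF7L2 virus, a TCF7L2 hairpin virus or a control virus. The set holds 10 genes, taken by symbol from the deposited gene tables, of 14607 genes listed in any of the 9 libraries: Csf2rb, Csf1r, Cd14, Fcer1g, Tyrobp, Cd68, C1qa, C1qb, C1qc and Cd163. All 10 symbols were found. The lenti-TCF7L2 group carried a lentivirus that overexpresses TCF7L2, labelled WT in the sample titles. TCF7L2 is a transcription factor of the Wnt/β-catenin pathway. The lenti-shTCF7L2 group carried a lentivirus with a short hairpin RNA against it, and the lenti-NC group, which the other groups are set against, a lentiviral control vector. Each group had 3 libraries. In all groups the cells came from Sprague Dawley rats of 1 to 2 days of age and were exposed to virus for 16 h. They were then kept for 48 h in medium with 10% serum and antibiotic. These are primary cultures from digested hearts, so cells other than cardiomyocytes can be present, and the labels do not say which cells the virus entered or whether the 3 libraries of a group are separate cultures. If they are not, the p-values below measure only the spread between these libraries.

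Macrophages take up particles and dying cells, sense microbial products and depend on colony-stimulating factors for survival and growth. Csf1r is the receptor for CSF1 and IL-34, on which most tissue macrophages, those of the heart included, depend. Csf2rb encodes the common β chain, the signalling subunit that the receptors for GM-CSF, IL-3 and IL-5 share. CD14 hands lipopolysaccharide to the TLR4 receptor. Fcer1g and Tyrobp encode small adaptor chains (FcRγ and DAP12) that couple activating receptors to the kinase SYK. CD68 is a glycoprotein of the late endosome and lysosome, C1q is the recognition subunit of complement C1, built from chains A, B and C, and CD163 takes up haptoglobin-haemoglobin complexes. Some of these genes are also expressed outside the lineage, CD14 and the common β chain among them, so their levels are given here as levels and not as a content of macrophages.

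The libraries held between 15085922 and 16478295 expected counts each. Tcf7l2 itself had 2251, 3240 and 1434 counts in lenti-TCF7L2 cells, 388, 465 and 391 in lenti-shTCF7L2 cells, and 595, 540 and 510 in lenti-NC cells. It rose with lenti-TCF7L2 (log2 difference 1.97, SE 0.27, adjusted p = 8.46e-04, edgeR). With the hairpin it was lower in 3 of 3 libraries, but the difference did not pass (-0.43, SE 0.27, adjusted p = 0.511). The lenti-TCF7L2 libraries were less alike than the others, with a lowest pairwise correlation of log2 values of 0.948, against 0.994 in lenti-shTCF7L2 and 0.994 in lenti-NC cells. In lenti-TCF7L2 against lenti-NC the median difference also fell with gene length, at 0.20 in the shortest of 4 length classes and -0.22 in the longest. Of the cardiomyocyte markers, Myh6, the cardiac α-myosin heavy chain, was at 685 to 704 FPKM with lenti-TCF7L2, 1713 to 1813 with lenti-shTCF7L2 and 1800 to 1870 with lenti-NC.

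Of the 10 marker genes, 6 were expressed well enough to be tested. Per length, in FPKM (fragments per kilobase of gene length, scaled to library size), Csf2rb was the highest of them in lenti-TCF7L2 cells, at 59.9 ± 19.2 (SD, n = 3, as throughout). Fcer1g at 18.9 ± 2.25, Cd68 at 18.6 ± 2.08 and Cd14 at 18.2 ± 1.22 followed with overlapping ranges. Tyrobp at 8.46 ± 2.13 and Csf1r at 0.493 ± 0.117 came below these without overlap. In lenti-shTCF7L2 cells Cd14 led, at 10.1 ± 0.423 FPKM, and Csf2rb was in the fourth place at 5.44 ± 0.764, with a range that overlapped that of Cd68. In lenti-NC cells the order was Csf2rb at 13.5 ± 2.42, Cd14 at 9.95 ± 0.466, Cd68 at 8.0 ± 0.769, Fcer1g at 6.73 ± 0.616, Tyrobp at 3.90 ± 0.244 and Csf1r at 0.240 ± 0.0458 FPKM. There, only Cd68 and Fcer1g overlapped. The other 4 genes were at the edge of detection: the 3 C1q chains had at most 4 counts in any library, and Cd163 was listed in 1 library of 9, with 1 count.

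**Figure D1:**
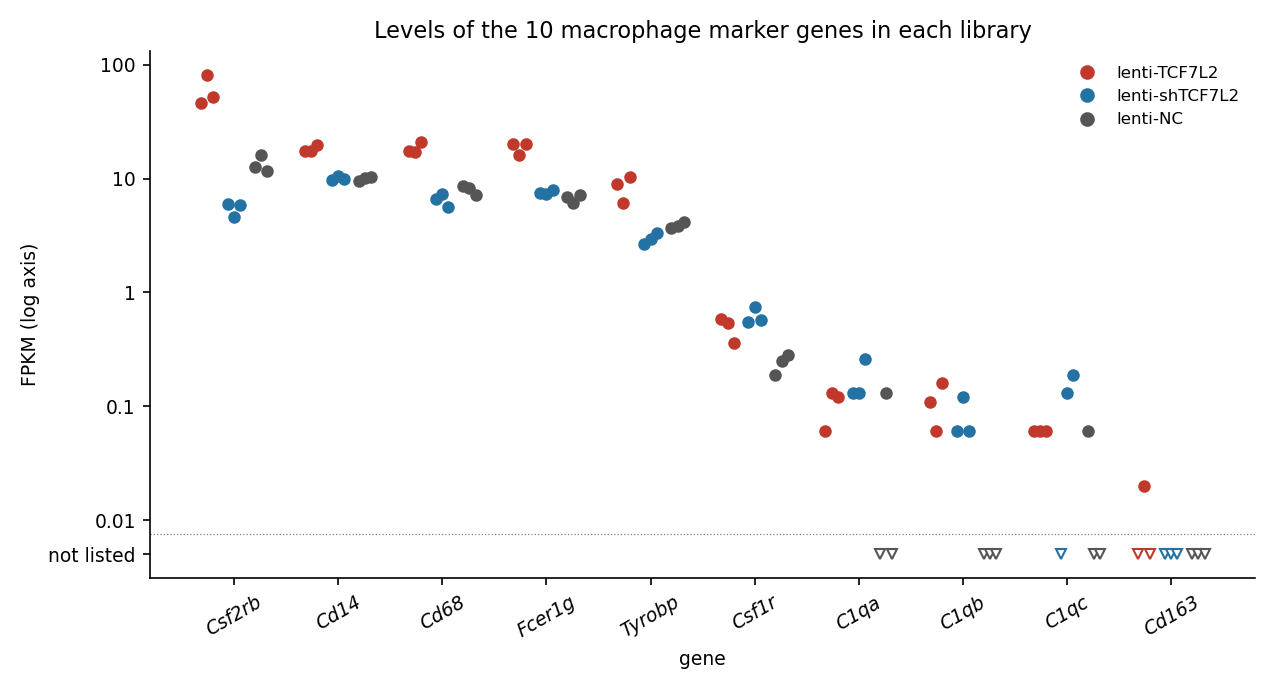
FPKM (log axis) of the 10 marker genes in each of the 9 libraries, with lenti-TCF7L2 at the left, lenti-shTCF7L2 in the middle and lenti-NC at the right of each gene; open triangles are libraries in which the gene was not listed. Csf2rb spans 4.56 to 81.8 FPKM, the next 4 genes lie between 2.67 and 21.0 FPKM, and Csf1r and the 4 genes to its right lie under 1 FPKM.

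Promoter sequence is shown for 3 genes that the comparisons set apart: Cd68 and Cd14, which were called higher with lenti-TCF7L2 and not called with the hairpin, and Csf1r, which was called higher with each. RefSeq promoters on GRCr8, from 250 bases before to 50 after the start of the gene, were at hand for 6 of the 10 genes. The motifs searched, on both strands, were ATCAAAG, a core of TCF/LEF sites, and GAGGAA, a core of sites for PU.1, the main transcription factor of the myeloid lineage. The motifs do not overlap in these windows. Capitals mark the PU.1 core, which reads TTCCTC where it lies on the other strand.
Cd68: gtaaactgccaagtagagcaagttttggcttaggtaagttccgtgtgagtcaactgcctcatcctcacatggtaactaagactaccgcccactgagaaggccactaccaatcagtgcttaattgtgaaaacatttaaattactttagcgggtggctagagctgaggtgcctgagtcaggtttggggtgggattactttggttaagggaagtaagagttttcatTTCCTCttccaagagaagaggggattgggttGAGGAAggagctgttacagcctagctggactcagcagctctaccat
Cd14: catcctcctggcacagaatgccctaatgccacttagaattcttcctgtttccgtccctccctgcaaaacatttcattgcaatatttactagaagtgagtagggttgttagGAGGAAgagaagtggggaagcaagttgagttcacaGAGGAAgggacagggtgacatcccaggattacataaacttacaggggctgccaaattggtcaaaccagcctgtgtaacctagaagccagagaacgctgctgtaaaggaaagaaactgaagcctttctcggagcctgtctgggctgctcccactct
Csf1r: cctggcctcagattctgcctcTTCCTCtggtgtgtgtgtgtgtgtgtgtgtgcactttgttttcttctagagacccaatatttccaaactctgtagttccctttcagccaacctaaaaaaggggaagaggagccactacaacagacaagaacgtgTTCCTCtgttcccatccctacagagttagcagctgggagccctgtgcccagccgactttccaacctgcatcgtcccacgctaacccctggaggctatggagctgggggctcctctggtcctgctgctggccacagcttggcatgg
These lie at chr10:54882392-54882691 (minus strand) for Cd68, chr18:28611109-28611408 (minus strand) for Cd14 and chr18:56834129-56834428 (plus strand) for Csf1r. Each holds the PU.1 core at 2 places, at -27 and 4 in Cd68, at -140 and -105 in Cd14 and at -229 and -95 in Csf1r, counted from the start of the gene at 0. In all, 4 of the 6 promoters held it, the fourth being C1qb, and 27.6% of 33469 promoters of this length did. The TCF/LEF core was in 0 of the 6, and 3.63% of all promoters held it. A match is a stretch of letters and no evidence of binding, and its absence speaks only of this window. Promoters of Csf2rb, Fcer1g, Tyrobp and C1qc were not analysed here.

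With lenti-TCF7L2 against lenti-NC, 6 of the 10 marker genes rose, and the other 4 could not be tested. The rise was 4.28-fold for Csf2rb, 2.70-fold for Fcer1g, 2.25-fold for Cd68, 2.10-fold for Tyrobp, 1.96-fold for Csf1r and 1.77-fold for Cd14. Of all 11761 genes tested, 18.0% were called higher. All 3 lenti-TCF7L2 libraries lay above all 3 lenti-NC libraries for each of the 6, as they did for 24.9% of tested genes. All 6 were also called without lenti-TCF7L2 replicate 3 and with the trend on gene length removed, but the Csf1r call was lost in 4 other fits: without lenti-NC replicate 1, lenti-NC replicate 2 or lenti-TCF7L2 replicate 1, and with only the 6 libraries compared. The median log2 difference of the 6 was 1.12, against 0.03 over all tested genes. Each of the 6 had at least 11 counts in every library, so none entered the test through the higher group alone. In bulk RNA a change in the number of cells of a type and a change in RNA per cell cannot be told apart.

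With lenti-shTCF7L2 against lenti-NC, the marker genes went in both directions. Csf2rb fell to 0.394-fold, Csf1r rose 2.50-fold, and Cd68, Tyrobp, Fcer1g and Cd14 did not pass. That is 1 gene higher and 1 lower of 6, where 1.32% of all tested genes were called higher and 2.32% lower, 3.64% in all. The hairpin libraries lay wholly above the control libraries for Csf1r (19.9% of tested genes did) and wholly below them for Csf2rb, Cd68 and Tyrobp (21.0%). Both calls needed all 6 libraries of these groups: with any 1 lenti-shTCF7L2 or lenti-NC library left out, the adjusted p was 0.0513 to 0.0853 for Csf2rb and 0.0681 to 0.126 for Csf1r, with the direction kept.

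With lenti-TCF7L2 against lenti-shTCF7L2, 5 of the 6 tested genes rose, and Csf1r did not pass. Csf2rb was 10.9-fold higher, Cd68 2.82-fold, Tyrobp 2.81-fold, Fcer1g 2.46-fold and Cd14 1.78-fold. Of all tested genes 18.4% were called higher in this comparison. For the same 5 genes the lenti-TCF7L2 libraries lay wholly above the hairpin libraries, as for 24.1% of tested genes. The 3 comparisons share libraries in pairs, so they are not independent of each other.

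**Figure D2:**
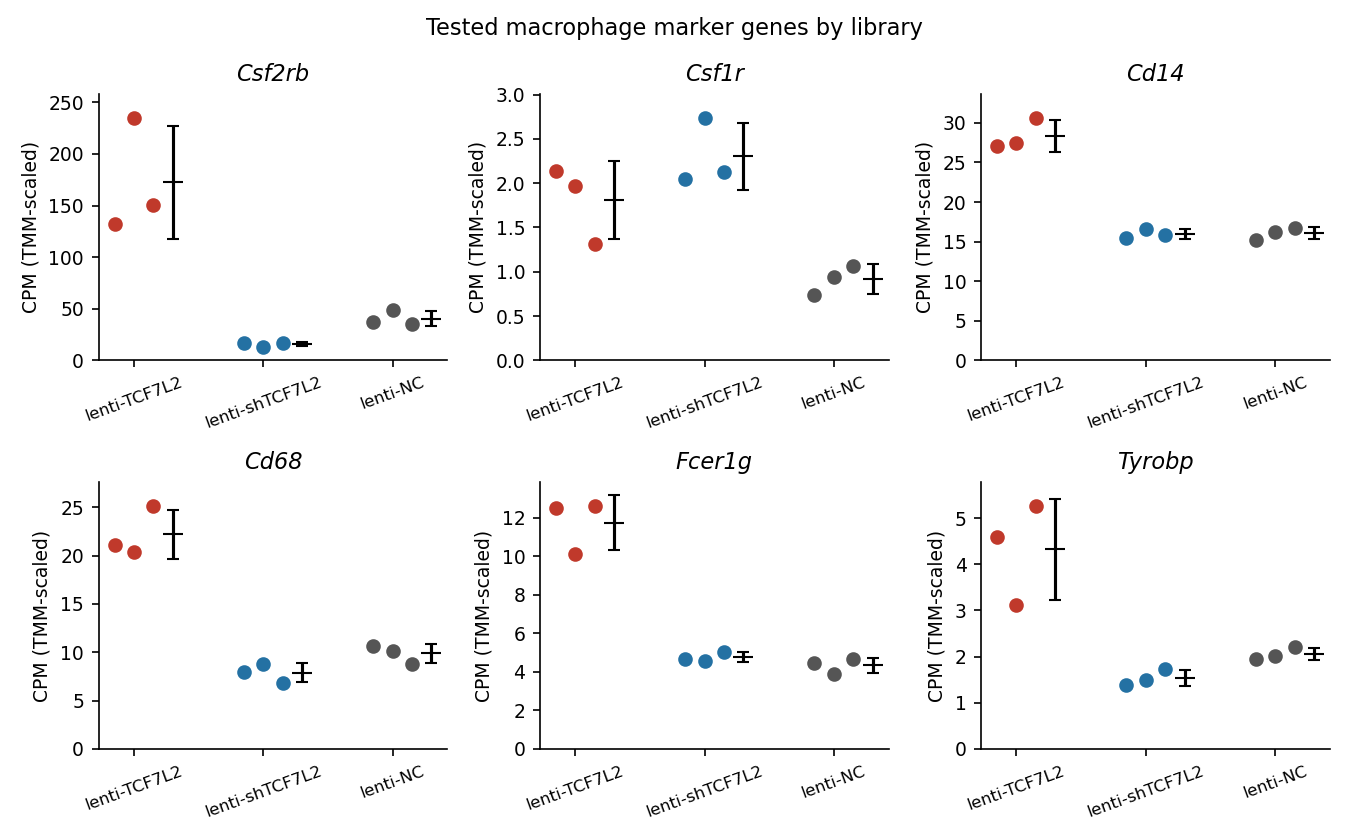
Counts scaled to library size (CPM, with TMM-scaled library sizes) of the 6 tested marker genes, 1 panel per gene; points are the 3 libraries of each group and the bar beside them is the mean ± SD. The lenti-TCF7L2 points lie above the lenti-NC points in every panel, the lenti-shTCF7L2 points lie below the lenti-NC points in the Csf2rb panel and above them in the Csf1r panel.

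**Figure D3:**
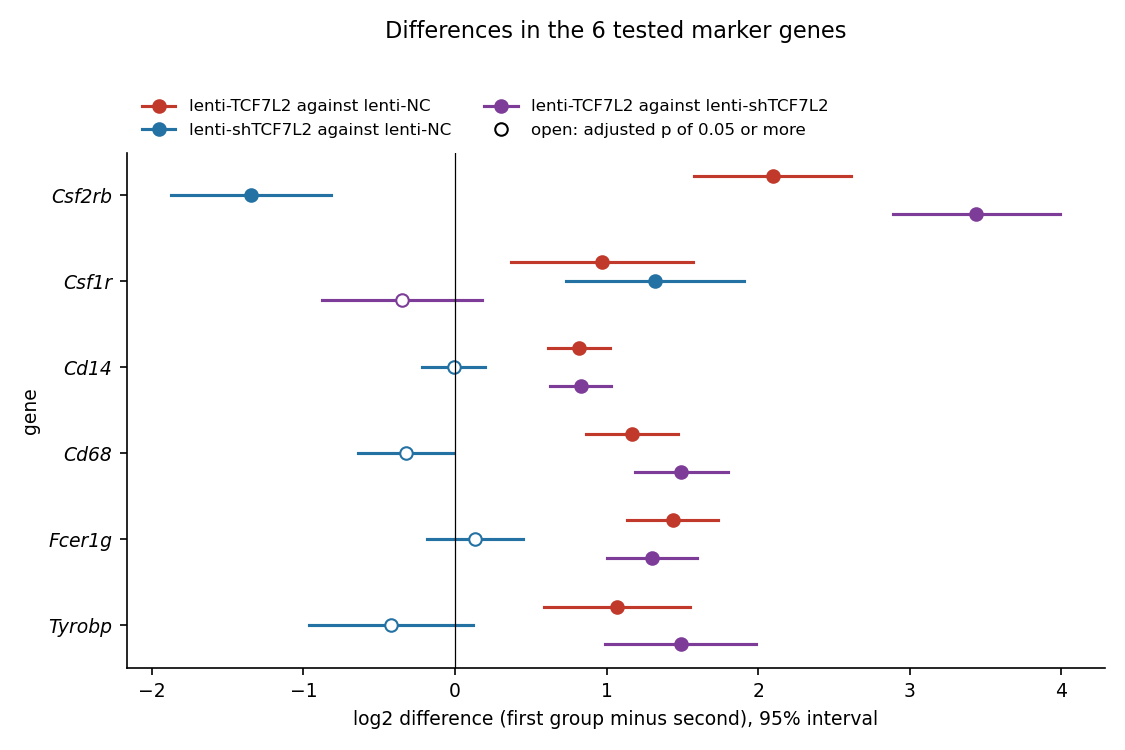
Log2 differences of the 6 tested marker genes with 95% intervals from the edgeR fit, for the 3 comparisons; the group named first is higher at positive values, and open points have an adjusted p of 0.05 or more. Csf2rb is 2.10 with lenti-TCF7L2 and -1.34 with lenti-shTCF7L2, and Csf1r is 0.97 and 1.32.

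Csf2rb, the common β chain, had the largest difference of the 6 with lenti-TCF7L2 against either other group; with the hairpin against lenti-NC its fall and the rise of Csf1r were of about the same size. It had 2095, 3700 and 2512 counts in lenti-TCF7L2 libraries, 263, 203 and 257 in lenti-shTCF7L2 libraries, and 559, 720 and 521 in lenti-NC libraries. The 3 groups did not overlap, with lenti-TCF7L2 highest and lenti-shTCF7L2 lowest. In CPM the means were 172 ± 55.04 with lenti-TCF7L2, 15.9 ± 2.30 with lenti-shTCF7L2 and 40.3 ± 7.23 with lenti-NC. The log2 difference was 2.10 (SE 0.23, adjusted p = 3.11e-04, edgeR) for lenti-TCF7L2 against lenti-NC and 1.80 without lenti-TCF7L2 replicate 2, the highest library. For lenti-shTCF7L2 against lenti-NC it was -1.34 (SE 0.23, adjusted p = 0.0158), and for lenti-TCF7L2 against lenti-shTCF7L2 3.44 (SE 0.24, adjusted p = 2.89e-05).

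The chains that pair with Csf2rb to bind ligand had smaller differences, which were not tested against it. Csf2ra, the α chain of the GM-CSF receptor, had 10.5, 10.4 and 14.1 FPKM with lenti-TCF7L2, 7.05, 6.46 and 7.27 with lenti-shTCF7L2, and 5.23, 6.12 and 5.23 with lenti-NC. It rose with lenti-TCF7L2 against lenti-NC (log2 difference 1.03, SE 0.15, adjusted p = 0.00105) and was 0.30 with the hairpin (adjusted p = 0.385). Il3ra, the α chain of the IL-3 receptor, rose by 0.81 (SE 0.17, adjusted p = 0.00657) with lenti-TCF7L2 and was -0.23 (adjusted p = 0.632) with the hairpin. The FPKM of Csf2rb over that of Csf2ra was 5.31 ± 2.23 in lenti-TCF7L2 cells, 0.783 ± 0.0700 in lenti-shTCF7L2 cells and 2.43 ± 0.213 in lenti-NC cells. The β chain thus stood above the α chain in 6 libraries and below it in the 3 hairpin libraries.

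Downstream of this receptor, Jak2, the kinase bound to the β chain, had 42.5, 51.6 and 36.5 FPKM with lenti-TCF7L2, 25.4, 24.5 and 27.3 with lenti-shTCF7L2, and 23.0, 24.4 and 24.8 with lenti-NC. It rose by 0.81 (SE 0.12, adjusted p = 0.00122) in lenti-TCF7L2 against lenti-NC. The hairpin difference was 0.06 (adjusted p = 0.896). Stat5a, a transcription factor that JAK2 activates, rose by 0.52 (adjusted p = 0.00818) with lenti-TCF7L2, while its relative Stat5b was at -0.37 (adjusted p = 0.167). The ligand gene Csf2 (GM-CSF) was near the lower limit, with 12, 14 and 25 counts in lenti-TCF7L2 cells, 18, 10 and 8 in lenti-shTCF7L2 cells, and 9, 8 and 8 in lenti-NC cells. No difference in Csf2 passed (0.90 with lenti-TCF7L2, adjusted p = 0.11, and 0.49 with the hairpin, adjusted p = 0.677).

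**Figure D4:**
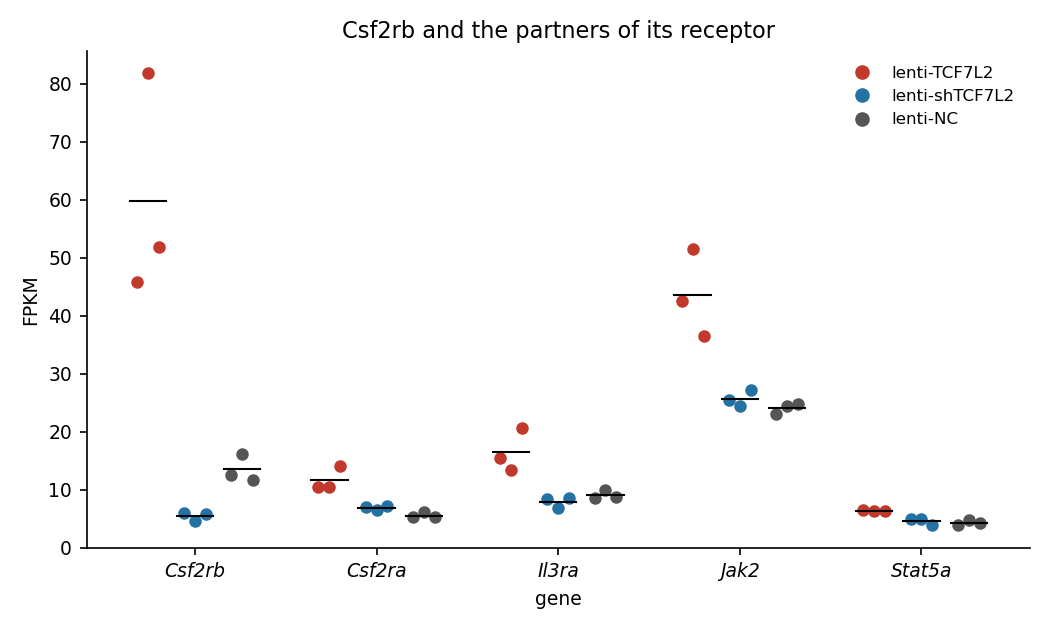
FPKM of Csf2rb and of 4 partners of its receptor in each library; points are libraries and lines are group means, with lenti-TCF7L2 at the left, lenti-shTCF7L2 in the middle and lenti-NC at the right of each gene. The lenti-TCF7L2 libraries are highest for all 5 genes, and for Csf2rb the lenti-shTCF7L2 libraries, at 4.56 to 5.94 FPKM, lie below the lenti-NC libraries, at 11.7 to 16.3.

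Csf1r was the scarcest of the tested marker genes and the one called higher with both TCF7L2 viruses. It had 34, 31 and 22 counts in lenti-TCF7L2 libraries, 31, 42 and 32 in lenti-shTCF7L2 libraries, and 11, 14 and 16 in lenti-NC libraries. Both of the first groups lay above lenti-NC, and they overlapped each other. The log2 difference was 0.97 (SE 0.27, adjusted p = 0.0234) for lenti-TCF7L2 against lenti-NC and 1.32 (SE 0.26, adjusted p = 0.0263) for lenti-shTCF7L2 against lenti-NC. Between lenti-TCF7L2 and lenti-shTCF7L2 it was -0.35, with a 95% interval of -0.88 to 0.18 (adjusted p = 0.277), an interval that allows a difference in either direction. In the 4 fits without a call for lenti-TCF7L2 against lenti-NC, the difference was 0.84 (adjusted p = 0.0867) when lenti-NC replicate 1 was left out, 0.99 (adjusted p = 0.0659) when lenti-NC replicate 2 was, and 0.82 (adjusted p = 0.0760) when lenti-TCF7L2 replicate 1 was. In a fit of the 6 libraries compared it was 0.96 (adjusted p = 0.0566).

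In FPKM, the transcripts of both ligands of this receptor stood above those of Csf1r, Csf1 by far and Il34 by less. Csf1 had 144, 159 and 107 FPKM with lenti-TCF7L2, 112, 119 and 113 with lenti-shTCF7L2, and 129, 127 and 123 with lenti-NC, and it did not pass in either comparison with lenti-NC (0.06, adjusted p = 0.734, and -0.17, adjusted p = 0.605). Il34 had 6.77, 7.04 and 9.33 FPKM with lenti-TCF7L2, 2.74, 2.09 and 3.31 with lenti-shTCF7L2, and 4.8, 4.24 and 5.4 with lenti-NC. The groups did not overlap for Il34. It rose by 0.63 (SE 0.19, adjusted p = 0.0332) with lenti-TCF7L2, and the hairpin difference of -0.86 (SE 0.20) missed the threshold (adjusted p = 0.057).

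Cd14 had 429, 432 and 513 expected counts in lenti-TCF7L2 libraries, 234, 255 and 239 in lenti-shTCF7L2 libraries, and 226, 242 and 250 in lenti-NC libraries. The lenti-TCF7L2 libraries lay above all the others, and the hairpin and control libraries overlapped. Its log2 difference was 0.82 (SE 0.09, adjusted p = 3.15e-04) for lenti-TCF7L2 against lenti-NC. For lenti-shTCF7L2 against lenti-NC it was -0.01, with a 95% interval of -0.21 to 0.20 (adjusted p = 0.987). For lenti-TCF7L2 against lenti-shTCF7L2 it was 0.83 (SE 0.09, adjusted p = 2.01e-04). Cd14 alone among the 10 had fractional counts in all 9 libraries, as arises where reads are divided between genes.

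Among the other genes of lipopolysaccharide sensing, Lbp rose with lenti-TCF7L2 and fell with the hairpin, while Tlr4 and Ly96 did not pass. Lbp, the serum protein that passes lipopolysaccharide to CD14, had 171, 210 and 206 FPKM in lenti-TCF7L2 cells, 40.8, 37.0 and 38.6 in lenti-shTCF7L2 cells, and 79.2, 91.8 and 92.8 in lenti-NC cells. It was 2.15-fold higher with lenti-TCF7L2 (adjusted p = 1.29e-04) and fell by 1.21 on the log2 scale with the hairpin (SE 0.10, adjusted p = 0.00118). Tlr4, the receptor itself, was at -0.10 (adjusted p = 0.733) with lenti-TCF7L2 and -0.31 (adjusted p = 0.587) with the hairpin. Ly96, the MD-2 chain that holds the ligand on TLR4, was at 0.08 (adjusted p = 0.776) and -0.11 (adjusted p = 0.904). The adaptor Myd88 rose by 0.59 (SE 0.11, adjusted p = 0.00388) with lenti-TCF7L2, and Cd180, a TLR4 homologue, fell by 0.48 (SE 0.14, adjusted p = 0.0276).

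Both adaptor chains rose with lenti-TCF7L2, and neither passed with the hairpin. Fcer1g had 199, 159 and 211 counts in lenti-TCF7L2 libraries, 71, 70 and 76 in lenti-shTCF7L2 libraries, and 66, 58 and 70 in lenti-NC libraries. Its log2 difference was 1.43 (SE 0.13, adjusted p = 1.37e-04) for lenti-TCF7L2 against lenti-NC and 0.13, with an interval of -0.18 to 0.45, for lenti-shTCF7L2 against lenti-NC (adjusted p = 0.764). The hairpin and control libraries overlapped. Tyrobp had 73, 49 and 88 counts in lenti-TCF7L2 libraries, 21, 23 and 26 in lenti-shTCF7L2 libraries, and 29, 30 and 33 in lenti-NC libraries. The log2 difference of Tyrobp was 1.07 (SE 0.21, adjusted p = 0.00534) for lenti-TCF7L2 and -0.42, with an interval of -0.96 to 0.12, for the hairpin (adjusted p = 0.462). Its hairpin libraries lay below the control libraries without passing the test. Between lenti-TCF7L2 and lenti-shTCF7L2, Fcer1g was 2.46-fold higher with lenti-TCF7L2 (adjusted p = 1.37e-04) and Tyrobp by 1.49 on the log2 scale (SE 0.22, adjusted p = 0.00103).

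Both adaptor transcripts are short, 657 bases for Fcer1g and 545 for Tyrobp, the length class with the highest median in lenti-TCF7L2 against lenti-NC. With a trend on gene length removed from each library, the lenti-TCF7L2 difference was 1.27 for Fcer1g (adjusted p = 9.25e-05) and 0.87 for Tyrobp (adjusted p = 0.00174). The FPKM of Fcer1g over that of Tyrobp was 2.29 ± 0.351 in lenti-TCF7L2 cells, 2.55 ± 0.197 in lenti-shTCF7L2 cells and 1.73 ± 0.139 in lenti-NC cells. The lowest ratio with either TCF7L2 virus, 1.96, was above the highest with lenti-NC, 1.86, and the ratios were not tested.

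Among receptors that use these adaptors, 3 were picked after their values were seen. Trem2, a receptor that signals through DAP12, had 31, 24 and 29 counts in lenti-TCF7L2 cells, 12, 17 and 10 in lenti-shTCF7L2 cells, and 11, 7 and 12 in lenti-NC cells, and it rose by 1.36 (SE 0.27, adjusted p = 0.00571) with lenti-TCF7L2. Fcgr1a and Fcgr3a, immunoglobulin receptors that need FcRγ, rose by 1.07 (SE 0.20, adjusted p = 0.00372) and 1.29 (SE 0.28, adjusted p = 0.00796). Syk, the kinase recruited to both adaptors, had 0.74, 0.80 and 0.66 FPKM in lenti-TCF7L2 cells, 0.44, 0.48 and 0.46 in lenti-shTCF7L2 cells, and 0.26, 0.34 and 0.30 in lenti-NC cells. The groups did not overlap. Syk rose by 1.23 (SE 0.16, adjusted p = 7.12e-04) with lenti-TCF7L2 and was at 0.57 (SE 0.17, adjusted p = 0.118) with the hairpin. None of the 3 receptors passed with the hairpin (adjusted p of 0.722 for Trem2, 0.761 for Fcgr1a and 0.362 for Fcgr3a). Of all 25 genes listed as partners of the receptors, 13 rose and 1 fell with lenti-TCF7L2. Of all tested genes, 18.0% were called higher and 13.8% lower. The list is wider than signalling: it also holds Csf3, the ligand gene of Csf3r, and Hp and Hmox1 of the Cd163 pathway, all among the 13. With the hairpin 0 of the 25 rose and 1, Lbp, fell, where 1.32% and 2.32% of all genes were called higher and lower. Vav1, among the 13 that rose with lenti-TCF7L2, had 20, 28 and 12 counts there. It had 9, 7 and 16 with lenti-shTCF7L2 and 7, 7 and 6 with lenti-NC. Vav1 thus entered the test through the lenti-TCF7L2 libraries, where it was high, and its call is not read as a result.

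Cd68 had 334, 321 and 420 counts in lenti-TCF7L2 libraries, 121, 135 and 103 in lenti-shTCF7L2 libraries, and 158, 151 and 132 in lenti-NC libraries. All lenti-TCF7L2 libraries were above the control, and in CPM all hairpin libraries were below it by a small margin, at up to 8.80 against 8.82 or more in lenti-NC cells, while in FPKM these groups overlapped. The log2 difference was 1.17 (SE 0.13, adjusted p = 3.75e-04) for lenti-TCF7L2 against lenti-NC and 1.49 (SE 0.14, adjusted p = 8.40e-05) for lenti-TCF7L2 against lenti-shTCF7L2. For lenti-shTCF7L2 against lenti-NC it was -0.33 (SE 0.14), with an unadjusted p of 0.0433 and an adjusted p of 0.288. With only the 6 libraries of the hairpin and control groups that difference passed (adjusted p = 0.0486).

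Of 14 tested lysosomal genes other than Cd68, 3 rose and 1 fell with lenti-TCF7L2 against lenti-NC, with a median of 0.10, where 31.8% of all tested genes were called in either direction. With the hairpin 0 passed (3.64% of all genes did). In lenti-TCF7L2 against lenti-shTCF7L2, 8 rose and 1 fell, where 18.4% of all genes were called higher and 14.7% lower. The cathepsin gene Ctsz rose by 0.57 (SE 0.10, adjusted p = 0.00357) and the progranulin gene Grn by 0.37 (SE 0.07, adjusted p = 0.00536). The membrane protein gene Lamp1 was at -0.05 (adjusted p = 0.539). The FPKM of Cd68 was 0.0507 ± 0.00738 of that of Lamp1 in lenti-TCF7L2 cells, 0.0177 ± 0.00214 in lenti-shTCF7L2 cells and 0.0217 ± 0.00260 in lenti-NC cells.

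The genes of the C1q chains, neighbours on chromosome 5 in RefSeq GRCr8, were barely detected. C1qa had 1, 2 and 2 counts in lenti-TCF7L2 libraries, 2, 2 and 4 in lenti-shTCF7L2 libraries, and 0, 2 and 0 in lenti-NC libraries. C1qb had 2, 1 and 3 counts with lenti-TCF7L2, 1, 2 and 1 with lenti-shTCF7L2, and was listed in none of the lenti-NC libraries. C1qc had 1, 1 and 1 with lenti-TCF7L2, 0, 2 and 3 with lenti-shTCF7L2, and 1, 0 and 0 with lenti-NC. Summed over the chains and libraries, there were 14 counts with lenti-TCF7L2 (exact 95% Poisson interval 7.65 to 23.5), 17 with lenti-shTCF7L2 (9.90 to 27.2) and 3 with lenti-NC (0.619 to 8.77). These intervals cover counting error only. Against a floor of 3 counts (0.182 to 0.199 CPM, depending on the library), all but 1 of these values lay at or under it, and the genes were not tested.

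The proteases that C1q activates were present in abundance. C1r had 563, 625 and 589 FPKM in lenti-TCF7L2 cells, 284, 260 and 274 in lenti-shTCF7L2 cells, and 384, 419 and 396 in lenti-NC cells. It rose by 0.52 (SE 0.07, adjusted p = 0.00115) with lenti-TCF7L2 and fell by 0.58 (SE 0.07, adjusted p = 0.00504) with the hairpin. C1s rose by 0.51 (SE 0.09, adjusted p = 0.00318) and fell by 1.04 (SE 0.09, adjusted p = 0.00123) in the same comparisons. Serping1, the inhibitor of both proteases, had 363, 424 and 461 FPKM with lenti-TCF7L2, 74.2, 58.3 and 65.8 with lenti-shTCF7L2, and 159, 190 and 183 with lenti-NC. It rose by 1.18 (SE 0.12, adjusted p = 2.55e-04) and fell by 1.46 (SE 0.12, adjusted p = 0.00118). Of the 12 genes of C1 and early complement other than the C1q chains, 9 rose and 0 fell with lenti-TCF7L2 (18.0% and 13.8% of all tested genes), while 8 fell and 1 rose with the hairpin (2.32% and 1.32%). The one that rose with the hairpin was Cd55, which shields cells from complement (1.77, SE 0.14, adjusted p = 0.00118). Among the others, the component C2 rose by 0.99 with lenti-TCF7L2 (adjusted p = 9.00e-04) and fell by 0.69 with the hairpin (adjusted p = 0.0282).

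Cd163 had 1 count in lenti-TCF7L2 replicate 2 and 0 in the other 8 libraries, so no difference was detectable at this depth. The genes of the pathway it serves were expressed. Hp, which encodes haptoglobin, had 270, 300 and 545 counts in lenti-TCF7L2 cells, 50, 43 and 46 in lenti-shTCF7L2 cells, and 64, 119 and 72 in lenti-NC cells. The groups did not overlap, and Hp rose by 2.00 (SE 0.30, adjusted p = 0.00129) with lenti-TCF7L2, with -0.90 (adjusted p = 0.207) for the hairpin. Hmox1, the haem-degrading enzyme, rose by 0.82 (SE 0.12, adjusted p = 0.00113) with lenti-TCF7L2 and was at -0.40 (adjusted p = 0.112) with the hairpin.

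Markers of leukocytes outside the set moved in part with it. Of 32 other macrophage and leukocyte genes, 24 could be tested. With lenti-TCF7L2 14 rose and 0 fell, with a median of 0.74, where 18.0% of all tested genes were called higher and 13.8% lower. Folr2, among the 14, had 23, 17 and 23 counts with lenti-TCF7L2, 5, 7 and 7 with lenti-shTCF7L2 and 6, 7 and 3 with lenti-NC. It entered the test only through the lenti-TCF7L2 libraries, where it was high. Its call was thus favoured by the filter on low counts and is not read as a result. Lcp1, an actin-bundling protein of leukocytes, rose by 1.28 (SE 0.10, adjusted p = 8.53e-05), the tetraspanin Cd53 by 1.02 (SE 0.15, adjusted p = 0.00114) and the hyaluronan receptor Lyve1, which marks lymphatic endothelium as well as some macrophages, by 2.53 (SE 0.30, adjusted p = 4.03e-04). Itgam (0.76, adjusted p = 0.0240), Itgb2 (0.50, adjusted p = 0.0356) and Laptm5 (0.72, adjusted p = 0.00530) rose too. So did Mpeg1 (0.59, adjusted p = 0.0321) and Msr1 (0.98, adjusted p = 0.0194). Other defining genes did not pass in this comparison. Ptprc, the pan-leukocyte CD45, had 67, 74 and 46 counts in lenti-TCF7L2 cells, 22, 31 and 34 in lenti-shTCF7L2 cells, and 39, 40 and 38 in lenti-NC cells (0.57, adjusted p = 0.0883, for lenti-TCF7L2 against lenti-NC). The lenti-TCF7L2 libraries lay above the lenti-NC libraries for Ptprc, and against lenti-shTCF7L2 it was called higher (1.02, SE 0.24, adjusted p = 0.0104). With lenti-TCF7L2 against lenti-NC, Spi1, which encodes PU.1, was at 0.67 (adjusted p = 0.124), and Adgre1, the macrophage receptor F4/80, at -0.11 (adjusted p = 0.796). Siglec1 (-0.51, adjusted p = 0.229), Mertk (-0.43, adjusted p = 0.319), Cx3cr1 (-0.31, adjusted p = 0.536) and Lyz2 (-0.16, adjusted p = 0.673) did not pass there either. Nor did Ctss (0.75, adjusted p = 0.0589), Mrc1 (0.53, adjusted p = 0.0612) and Cybb (0.43, adjusted p = 0.501). With the hairpin 1 of the 24 rose, the lysozyme gene Lyz2 (1.22, SE 0.26, adjusted p = 0.0358), and 0 fell, against 1.32% and 2.32% of all genes.

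Csf2rb and Cd68 were also set against Ptprc. The FPKM of Csf2rb was 74.5 ± 21.1 times that of Ptprc in lenti-TCF7L2 cells, 14.0 ± 4.47 times in lenti-shTCF7L2 cells and 26.1 ± 3.51 times in lenti-NC cells. The ratio of Cd68 to Ptprc was 24.4 ± 10.3 in lenti-TCF7L2 cells, 16.8 ± 4.8 in lenti-shTCF7L2 cells and 15.5 ± 1.02 in lenti-NC cells. Its hairpin range, 11.8 to 21.3, overlapped both of the others, which did not overlap each other, at 17.5 to 36.2 with lenti-TCF7L2 and 14.6 to 16.6 with lenti-NC. For Csf2rb the ranges did not overlap between any of the groups, at 50.4 to 89.6 with lenti-TCF7L2, 10.9 to 19.2 with lenti-shTCF7L2 and 23.8 to 30.1 with lenti-NC. Csf2rb was also set against the endothelial gene Pecam1, which itself rose 5.80-fold with lenti-TCF7L2, against 4.28-fold for Csf2rb. That their ratio did not rise follows from these values. The endothelial genes listed ran from 0.71-fold (Kdr) to 11.7-fold (Cldn5), so the ratio describes Pecam1 only. The ratio of Csf2rb to Pecam1 was 4.19 ± 1.08 with lenti-TCF7L2, 2.43 ± 0.331 with lenti-shTCF7L2 and 5.66 ± 1.12 with lenti-NC. Its lenti-TCF7L2 and lenti-NC ranges overlapped, at 3.02 to 5.14 and 4.37 to 6.35. None of these ratios was tested.

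Markers of other cell types moved with lenti-TCF7L2 as well, and their part in the results above was not tested. The summed level of the 10 marker genes was 200 to 298 CPM in lenti-TCF7L2 libraries, 47.8 to 49.2 in lenti-shTCF7L2 libraries and 68.3 to 82.0 in lenti-NC libraries, of which Csf2rb alone averaged 172 CPM with lenti-TCF7L2, 15.9 with lenti-shTCF7L2 and 40.3 with lenti-NC. That of 14 endothelial genes was 919 to 1103 CPM with lenti-TCF7L2, 566 to 576 with lenti-shTCF7L2 and 659 to 686 with lenti-NC. Eng alone averaged 636 CPM with lenti-TCF7L2, 371 with lenti-shTCF7L2 and 450 with lenti-NC, so this sum mostly follows Eng. Of the 14 endothelial genes, 12 rose and 0 fell with lenti-TCF7L2 (median 1.71), where 18.0% and 13.8% of all tested genes did. Those with the smallest adjusted p were the adhesion molecule Pecam1 (2.54), the receptor Tie1 (2.17) and the sialomucin Emcn (3.20). The 2 not called were the VEGF receptors Kdr (-0.50, adjusted p = 0.0722) and Flt1 (-0.05, adjusted p = 0.805). Kdr averaged 48.9 CPM and Flt1 121 with lenti-NC, against 8.06 for Pecam1. With the hairpin 0 passed. Cldn5, among the 12, averaged 0.38 CPM with lenti-NC and 0.51 with lenti-shTCF7L2, against 4.53 with lenti-TCF7L2. It may have entered the test through that last group, where it was high. Of 15 cardiomyocyte genes, 13 fell and 1 rose with lenti-TCF7L2 (median -0.98), against 13.8% and 18.0% of all tested genes, with Myh6 at -1.45, the myoglobin gene Mb at -2.33 and the sarcomere protein gene Actn2 at -0.87, and 0 passed with the hairpin. Their sum was 23581 to 28722 CPM with lenti-TCF7L2, 47932 to 50228 with lenti-shTCF7L2 and 51986 to 54876 with lenti-NC.

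Of 12 fibroblast genes, 5 rose and 2 fell with lenti-TCF7L2 (median 0.22), against 18.0% and 13.8% of all tested genes, among them the proteoglycan genes Lum (0.98) and Dcn (0.90), which rose, and the surface protein gene Thy1 (-0.59). With the hairpin 4 of the 12 fell and 0 rose, against 2.32% and 1.32% of all genes. Their sum was 48443 to 66841 CPM with lenti-TCF7L2, 53931 to 56378 with lenti-shTCF7L2 and 54755 to 56288 with lenti-NC. Lymphocyte genes were almost absent: of 15 markers of T, B and NK cells only Cd247 could be tested (0.33 with lenti-TCF7L2, adjusted p = 0.155, and 0.36 with the hairpin, adjusted p = 0.33), and Cd8a, the next by mean level, had 2 to 11 counts in a library. Of 13 neutrophil and mast cell genes 2 could be tested, Kit, which did not pass (-0.24 with lenti-TCF7L2, adjusted p = 0.436), and Csf3r, the G-CSF receptor. Csf3r had 15, 22 and 13 counts in lenti-TCF7L2 cells, 4, 3 and 5 in lenti-shTCF7L2 cells, and 3, 1 and 1 in lenti-NC cells. It entered the test only through the lenti-TCF7L2 libraries, where it was high. Its call there (adjusted p = 0.00154) was thus favoured by the filter on low counts and is not read as a result. Csf3, the gene of its ligand, rose by 2.15 with lenti-TCF7L2 (SE 0.33, adjusted p = 0.00154) and was at -0.05 (adjusted p = 0.98) with the hairpin.

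**Figure D5:**
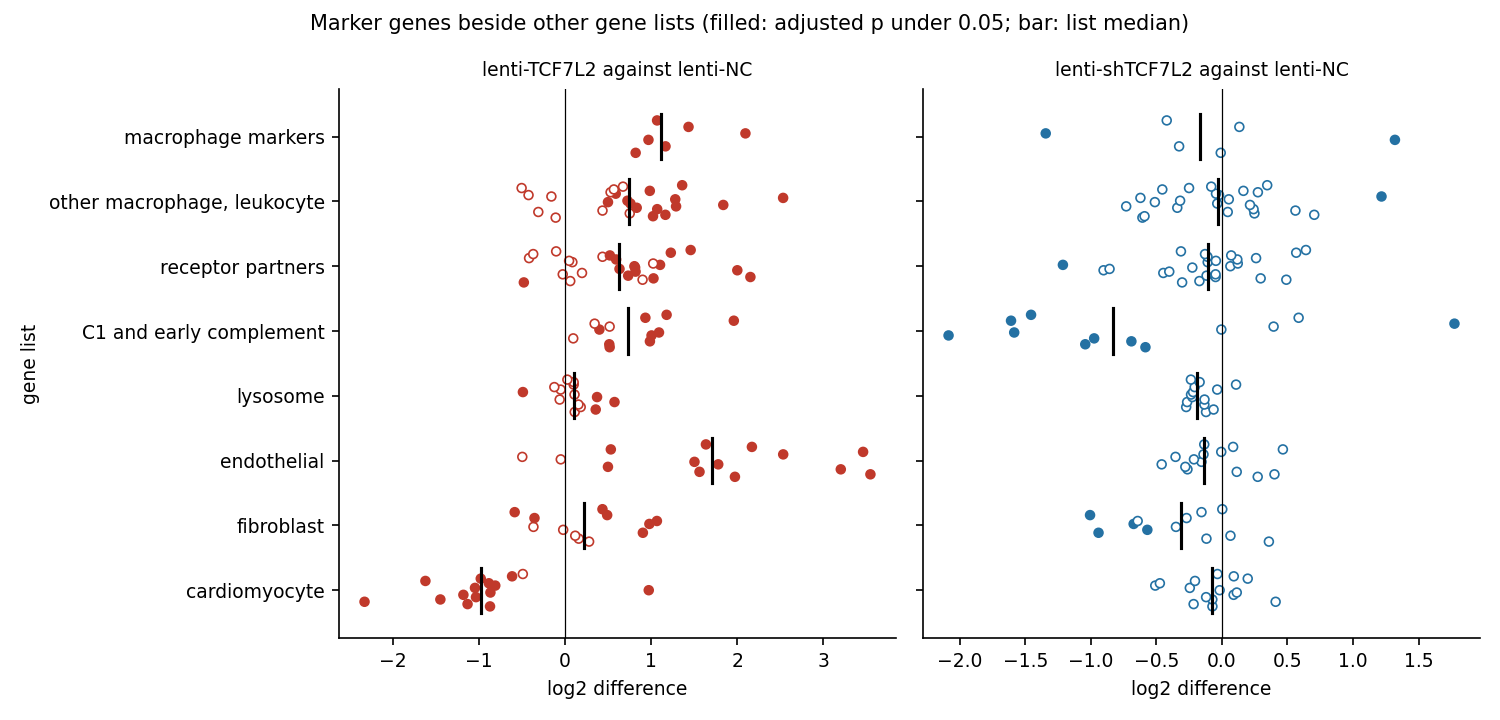
Log2 differences of the tested marker genes beside 7 other gene lists, for lenti-TCF7L2 against lenti-NC at the left and lenti-shTCF7L2 against lenti-NC at the right; each point is a gene, filled where the adjusted p is under 0.05, and bars are list medians. The medians with lenti-TCF7L2 are 1.12 for the marker genes, 0.74 for other macrophage and leukocyte genes and 1.71 for endothelial genes, and with the hairpin the C1 and early complement list has the lowest, -0.83.

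The genes with the most similar profiles over the 9 libraries were sought among 11239 genes, by the root mean square difference of centred log2 CPM. All 9 libraries enter, so these are descriptions of the same values and carry no test. The nearest to Csf2rb was Cfb, complement factor B, at 0.25, with 1052, 1520 and 1625 counts in lenti-TCF7L2 cells, 115, 93 and 124 in lenti-shTCF7L2 cells, and 272, 343 and 379 in lenti-NC cells, followed by Elf5 at 0.33. The nearest to Csf1r were Fam167a and Chac1, at 0.20 and 0.23, of which Chac1 was called higher with both TCF7L2 viruses (0.58, adjusted p = 0.0271, and 1.09, adjusted p = 0.00975) and Fam167a with the hairpin (1.14, adjusted p = 0.0394). The nearest to Cd14 were P2rx4 and Npdc1, at 0.05 and 0.07, to Fcer1g Hpx and Tnfrsf9, at 0.14 and 0.15, and to Cd68 LOC498276 and Kank3, at 0.11 and 0.12. The nearest to Tyrobp were Lgals3, the galectin-3 gene, and Eva1b, at 0.13 each. Among the marker genes themselves, Cd68 and Tyrobp were the closest pair, at 0.23, and Csf2rb and Csf1r the farthest apart, at 1.60.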

How the data were processed

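RNA was measured in 9 libraries, 3 per group, grouped by sample title. Per the labels, libraries were made from oligo(dT)-enriched RNA with a NEBNext Ultra kit and read on a BGISEQ-500; the use of strand is not stated, so overlapping and antisense genes may share reads. The submitters' processing notes name HISAT2, Bowtie2, RSEM 1.3.1, DESeq2 1.4.5 and build rn6, with no roles or order. Per the file headers, the deposited tables, 1 for each library, give expected counts (estimated fragments, unscaled) and FPKM values (per kilobase and library size) for each gene. Genes not listed in a library were set to 0.

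Expected counts were rounded, filtered with filterByExpr on the 3 groups (11761 genes kept, 2846 set aside), scaled with TMM and tested with the quasi-likelihood test of edgeR 4.0.16 (2-sided, R 4.3.3). A single model of group held the 9 libraries. The Benjamini-Hochberg adjustment ran over the whole table, with calls at an adjusted p under 0.05; every adjusted p in the report is from this fit unless a setting is named. Standard errors came from the log2 difference and its F statistic. The procedure was tested on simulated counts. The biological coefficient of variation was 14.9%.

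The marker genes and the gene lists were chosen with earlier results of these data known. Named were all 10 marker genes, Tcf7l2, up to 3 genes per list with the smallest adjusted p with lenti-TCF7L2, or 2 by level where none passed, and the 2 nearest profiles of each tested marker gene; 1 gene of the lysosome list that this rule names is not reported here. Other receptor partners, leukocyte and complement genes, Kit and Cd55 were named for their roles after their values were seen.

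Other settings tried were DESeq2 1.42.0, scaling by RLE or the upper quartile, a filter of at least 10 counts in 6 libraries or none, limma 3.58.1 with a trend on log2 FPKM (pseudocount 1 or 0.1, with and without a mean FPKM of at least 1), a replicate block, only the 6 libraries compared, a length adjustment (lowess, span 0.3), and each library left out in turn. Protein sequences and rn6 coordinates were not used here.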

Additional observations from a re-analysis of the deposited data

How the results depend on the processing

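In lenti-TCF7L2 against lenti-NC, 6 marker genes were called, 5 to 6 with a library left out, and 5 to 7 elsewhere, the seventh being C1qb on log2 FPKM with no filter. In lenti-TCF7L2 against lenti-shTCF7L2 it was 5 in each of the 21 other settings. In lenti-shTCF7L2 against lenti-NC it was 2, and 0 to 2 with a library left out. The 0 came from edgeR without any 1 lenti-shTCF7L2 or lenti-NC library, where 2 or 3 marker genes kept an unadjusted p under 0.05, and DESeq2 on all libraries called 2. It was 3 with only the 6 libraries compared and 1 on log2 FPKM with either pseudocount and a filter, which drops Csf1r. The Cd14 difference there, not called, turned to 0.0097 with upper-quartile scaling, 0.0016, 0.020 and 0.014 without lenti-NC replicate 2, lenti-NC replicate 3 and lenti-shTCF7L2 replicate 1, and, on log2 FPKM, to 0.019 (pseudocount 1, with or without a filter) and 0.021 (pseudocount 0.1); with a library left out it ran from -0.047 to 0.020; the cause was not tested.

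Calls over all genes were 3741 in lenti-TCF7L2 against lenti-NC, 2321 with only the 6 libraries compared and 2430 to 5503 with a library left out, the lowest being 2430, 2458 and 2486 without lenti-NC replicates 1, 2 and 3. In lenti-shTCF7L2 against lenti-NC they were 428, with 990 under the length adjustment, 2614 with that and without lenti-TCF7L2 replicate 3, 3294 with only the 6 libraries, 651 with DESeq2 and 88 to 2056 with a library left out. That range was 88 to 180 for any lenti-shTCF7L2 or lenti-NC library, with 646 without lenti-TCF7L2 replicate 2 and 2056 without replicate 3. In lenti-TCF7L2 against lenti-shTCF7L2 they were 3890, with 5936 under the length adjustment without lenti-TCF7L2 replicate 3. The cause of these shifts was not tested.

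Replicate numbers did not pair the libraries: residuals of same-numbered libraries correlated at -0.067 to 0.151, with 2 of 9 over 0.1, and 9 of 18 best matches were to the own number. With a replicate block, 244 genes and 1 marker gene were called in lenti-shTCF7L2 against lenti-NC, since Csf1r had an adjusted p of 0.0678 at 1.31. The block kept 6 and 5 marker genes in the other comparisons. Depth limits the C1q chains, Cd163 and Csf1r most.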
